A study of Arabidopsis thaliana with 9 samples.

Results

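*NAP*, *SAG101* and *SWEET15* are 3 *Arabidopsis* genes linked to leaf senescence, and their transcripts were followed here over all 9 arrays of the series. They were chosen by name, and each has 1 probe set among the 22746 probe sets tested. These are 256300_at for *NAP* (AT1G69490), 246600_at for *SAG101* (AT5G14930) and 245982_at for *SWEET15* (AT5G13170). RefSeq lists *SWEET15* under its other symbol, SAG29. *SAG101* and *SWEET15* were named from the platform annotation. The *NAP* probe set was named through the gene ontology lists of the study, which hold probe sets that changed on these same arrays, so the test of *NAP* in MeGRX232-OE is not independent of how it was named. Its test in MeGRX360-OE uses the same vector arrays and is not fully independent of the naming either. *SAG101* was not named through those lists but is held by one of them, that of aging. The members were also chosen with earlier results of these data known. The test of *SAG101* in MeGRX232-OE is therefore not independent evidence of a change either.

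All plants were transgenic *Arabidopsis*, and mature leaves were taken at 45 days in 12 h light and 12 h dark. MeGRX232-OE (lines 3, 9 and 12 as replicates 1 to 3) overexpressed the cassava CC-type glutaredoxin that the study calls *MeGRXC15*, fused to *GFP* and driven by the constitutive *CaMV 35S* promoter in Col-0, with each array from a separate homozygous line. MeGRX360-OE (lines 5, 11 and 20) overexpressed a second MeGRX gene, which the labels name only by this number and whose construct was not described in the sources used here, and the controls carried the empty vector pG1300 (vector, replicates 1 to 3). The hour of harvest was not given. The labels number the vector arrays 1 to 3 as they number the overexpression lines, and the p-values measure the spread between these arrays.

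Leaf senescence is the ordered last stage of a leaf's life, in which chloroplasts are dismantled and nitrogen and sugars are moved to growing organs and seeds. *NAP* encodes a NAC transcription factor that promotes this process and is normally high in senescing leaves. *SAG101* encodes a lipase-like protein that was first described as a senescence-associated acyl hydrolase and that, together with EDS1, also acts in immune signalling by intracellular receptors. *SWEET15* encodes a sugar transporter of the SWEET family that moves sucrose across the plasma membrane and is known for its rise in old leaves.

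The members did not move together. *NAP* was lower than in vector leaves in both overexpression groups, *SAG101* was higher in MeGRX232-OE, and *SWEET15* had lower means in both without passing the test. Differences are given between group means of log2 intensity, with the standard error (SE) of a limma fit over the 3 groups, and a probe set was called at an adjusted p under 0.05 (Benjamini-Hochberg over all 22746 probe sets). Intensities of different probe sets cannot be compared as transcript levels, so levels were compared across arrays and not between genes.

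*NAP* had intensities of 2317, 1507 and 1580 on the vector arrays (1801 ± 448, SD, n = 3). It stood at 467, 458 and 936 in MeGRX232-OE (621 ± 273, SD, n = 3) and at 625, 548 and 969 in MeGRX360-OE (714 ± 224, SD, n = 3). Every overexpression array was below every vector array, and replicate 3 was the highest of its group in both overexpression groups. *NAP* was thus 3.02-fold lower in MeGRX232-OE (log2 difference -1.59, SE 0.32, 95% interval -2.33 to -0.86, limma adjusted p = 0.00782) and 2.55-fold lower in MeGRX360-OE (-1.35, SE 0.32, 95% interval -2.09 to -0.62, limma adjusted p = 0.0226). In MeGRX232-OE 12.8% of all probe sets were called lower, and in MeGRX360-OE 9.72%, so a fall of this kind was common on these arrays. The call in MeGRX360-OE was lost when MeGRX360-OE replicate 1 (adjusted p = 0.0634), MeGRX360-OE replicate 2 (0.0756) or vector replicate 1 (0.0793) was left out, whereas the call in MeGRX232-OE held in each of the 9 fits with 1 array left out. The 2 overexpression groups differed by -0.24 (SE 0.32, 95% interval -0.98 to 0.49, limma adjusted p = 0.806), and their arrays overlapped.

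*SAG101* had low and close intensities on the vector arrays, 43.7, 32.2 and 32.5 (36.1 ± 6.55, SD, n = 3). In MeGRX232-OE it stood at 88.5, 109 and 100 (99.3 ± 10.3, SD, n = 3), and the lowest of these was more than the highest vector value. In MeGRX360-OE it stood at 116, 48.2 and 53.0 (72.6 ± 38.1, SD, n = 3). Replicate 1 of this group thus reached the level of the MeGRX232-OE arrays, while replicates 2 and 3 lay just above the highest vector array. *SAG101* rose 2.77-fold in MeGRX232-OE (1.47, SE 0.31, 95% interval 0.77 to 2.16, limma adjusted p = 0.00881), where 9.22% of all probe sets were called higher. In MeGRX360-OE the difference was 0.90 (SE 0.31, 95% interval 0.20 to 1.60, limma adjusted p = 0.0830), which did not pass, and it was 0.50 without replicate 1 (adjusted p = 0.0909). The difference between MeGRX232-OE and MeGRX360-OE was 0.57 (SE 0.31, 95% interval -0.13 to 1.26, limma adjusted p = 0.469). Without MeGRX360-OE replicate 1 it was 0.97 and just missed the threshold (SE 0.17, limma adjusted p = 0.0564). The data thus do not show that the groups differed, and the size of the difference depended on that array. The rise in MeGRX232-OE held in each of the 9 fits with 1 array left out. The vector arrays were dim for *SAG101*, at 1.09 to 1.46 times the array median, so the size of the rise is uncertain. With a pseudocount of 16 the difference in MeGRX232-OE was 1.15 and still called (limma adjusted p = 0.0202).

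MeGRX360-OE replicate 1 also stood apart in some control measures. The ratio of the GAPDH probe sets for the 3' and 5' ends of the transcript was 16.1 on this array and 8.96 to 11.1 on the other 8 arrays, and the geometric mean of 21 probe sets for bacterial control RNAs was 270 against 129 to 184. The ratio of the actin probe sets for the 3' and 5' ends was 14.8 on this array, inside the range of the others. It was 12.0 to 14.8 in MeGRX360-OE, 13.6 to 20.1 in MeGRX232-OE and 17.9 to 19.2 in vector. The part of these measures in the *SAG101* value of MeGRX360-OE replicate 1 was not tested.

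*SWEET15* was dim on every array, at 0.612 to 1.64 times the median of the probe sets tested on the same array. Its intensities were 37.1, 48.2 and 26.6 in vector (37.3 ± 10.8, SD, n = 3), 18.1, 24.4 and 30.0 in MeGRX232-OE (24.2 ± 5.95, SD, n = 3) and 21.3, 17.5 and 34.0 in MeGRX360-OE (24.3 ± 8.65, SD, n = 3). Vector replicate 3 lay below the highest array of each overexpression group, so the groups overlapped, and as for *NAP* replicate 3 was the highest of its group in both overexpression groups. The difference from vector was -0.61 in MeGRX232-OE (SE 0.30, 95% interval -1.30 to 0.08, limma adjusted p = 0.205) and -0.64 in MeGRX360-OE (SE 0.30, 95% interval -1.33 to 0.05, limma adjusted p = 0.210). Both intervals hold a fall by 1 on the log2 scale as well as no change. Between the overexpression groups the difference was 0.02 (SE 0.30, 95% interval -0.67 to 0.71, limma adjusted p = 0.985).

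**Figure D1:**
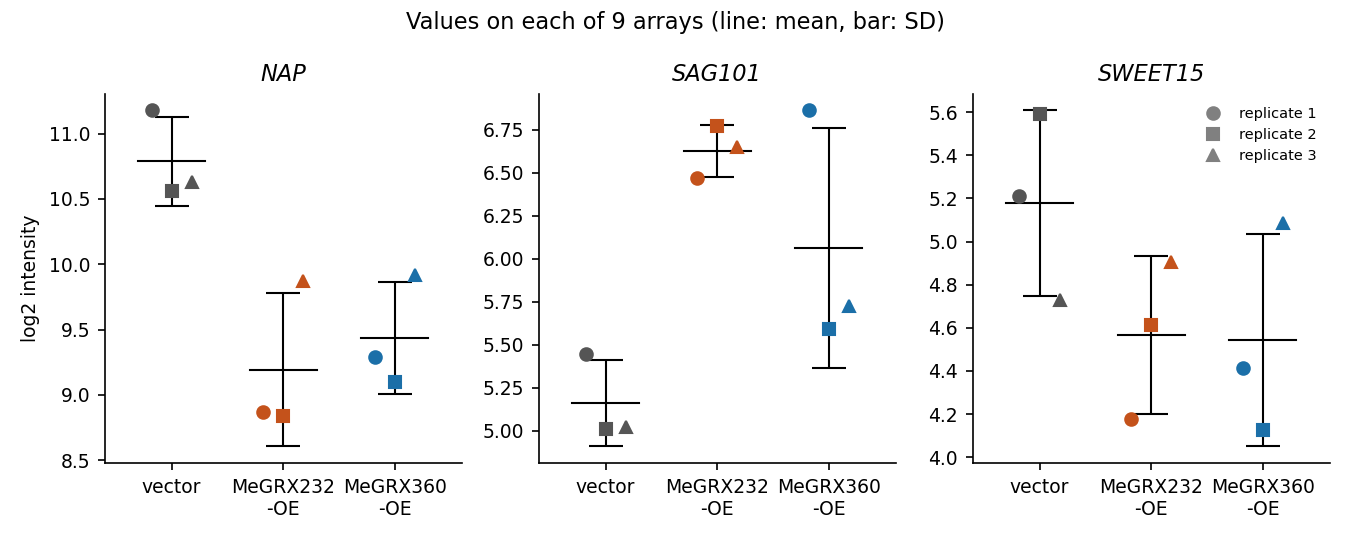
Log2 intensity (y axis, with its own range in each panel) of *NAP*, *SAG101* and *SWEET15* in vector, MeGRX232-OE and MeGRX360-OE leaves (x axis); symbols are single arrays (circle, square and triangle for replicates 1, 2 and 3), the long line is the mean and the bar the SD. All 6 overexpression arrays lie below the 3 vector arrays for *NAP*, all 6 lie above them for *SAG101*, and the groups overlap for *SWEET15*.

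**Figure D2:**
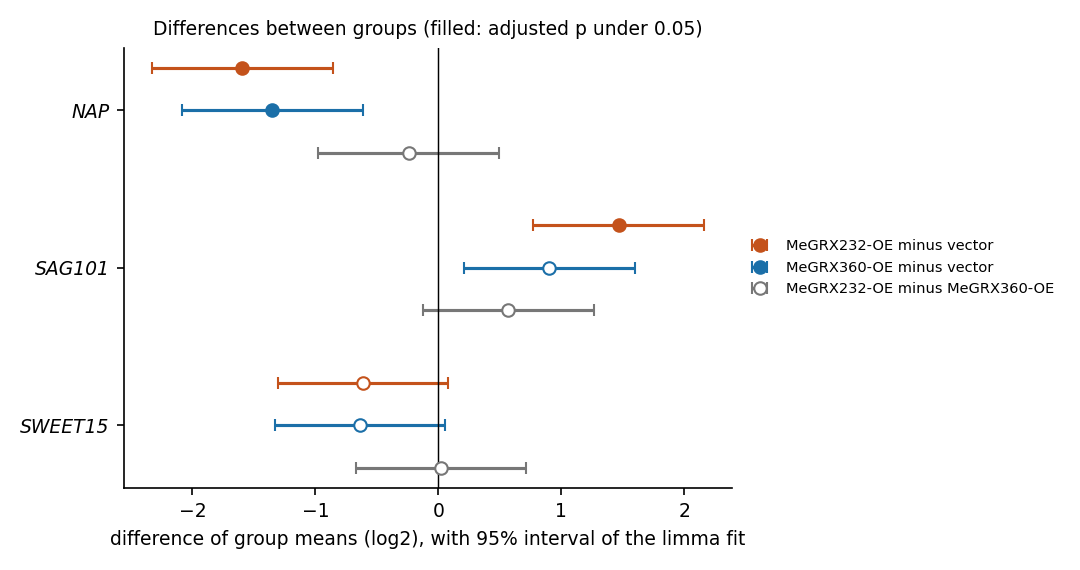
Difference of group means on the log2 scale (x axis) with the 95% interval of the limma fit for each gene (y axis) in the 3 comparisons; filled points have an adjusted p under 0.05. *NAP* is filled against vector at -1.59 and -1.35 and *SAG101* at 1.47, and no other point is filled.

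The arrays of MeGRX232-OE and vector did not overlap for *NAP* and *SAG101*, as for 37.1% of all probe sets, and the arrays of MeGRX360-OE and vector did not overlap for the same pair, as for 35.4% of all probe sets. Both comparisons use the same 3 vector arrays. In MeGRX232-OE 22.0% of all probe sets were called in either direction, in MeGRX360-OE 16.5%, and between the overexpression groups 0.145%. None of the 3 members was among the latter, and the arrays of both overexpression groups overlapped for all 3 while they did not for 16.3% of all probe sets. By the study's thresholds, more than 2-fold and p under 0.05, here applied to the unadjusted limma p, *NAP* passed in both overexpression groups and *SAG101* in MeGRX232-OE alone, beside 11.8% of all probe sets in MeGRX232-OE and 8.63% in MeGRX360-OE.

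The ratio of 2 probe sets on the same array is unaffected by a constant scaling factor of that array, and its level has no meaning of its own, so only its shift between groups was read. The log2 ratio of *NAP* to *SAG101* was 5.55 to 5.73 on the vector arrays, 2.07 to 3.22 in MeGRX232-OE and 2.42 to 4.19 in MeGRX360-OE, so these genes shifted against each other on all 6 overexpression arrays. The log2 ratio of *NAP* to *SWEET15* was 4.97 to 5.97 in vector, 4.23 to 4.96 in MeGRX232-OE and 4.83 to 4.97 in MeGRX360-OE. Those ranges lie close to each other or meet, and the fall of *NAP* relative to *SWEET15* was much less than that relative to *SAG101*. The values are a description, with no test.

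**Figure D3:**
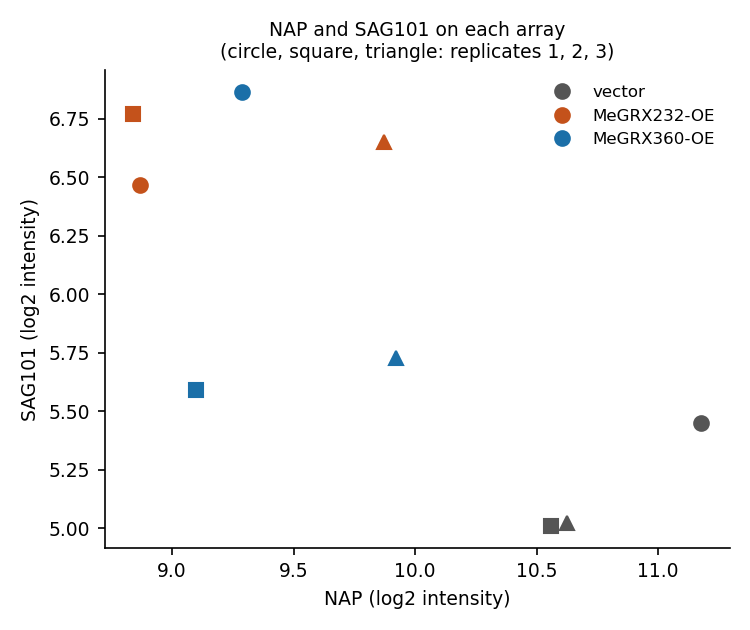
*SAG101* (y axis) against *NAP* (x axis), both as log2 intensity, on each of the 9 arrays; colours are groups and symbols are replicates 1 to 3. The vector arrays stand at the right with *NAP* between 10.6 and 11.2 and *SAG101* between 5.01 and 5.45, and MeGRX360-OE replicate 1 stands at the height of the MeGRX232-OE arrays for *SAG101* (6.86).

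The leaves and the scaling were checked with other genes. Of 9 leaf markers 2 had a named probe set, *RCA* (Rubisco activase) at 6875 to 11616 and *CA1* (a carbonic anhydrase) at 595 to 4657. *RCA* was lower in MeGRX232-OE (-0.57, SE 0.10, limma adjusted p = 0.00328) and had a difference of -0.30 in MeGRX360-OE (limma adjusted p = 0.0676). *CA1* had a difference of -1.26 in MeGRX232-OE, with all arrays below those of vector (limma adjusted p = 0.0994), of 0.24 in MeGRX360-OE (limma adjusted p = 0.806) and of -1.50 between the overexpression groups (limma adjusted p = 0.232). The part of these markers in the results for the members was not tested. The root gene *PYK10* was at 5.14 to 6.73 and the guard cell gene *FAMA* at 15.3 to 24.0 on all arrays, neither called, and none of the flower, seed or phloem markers had a named probe set. In whole leaves, fewer cells of a type and less RNA per cell cannot be told apart. The reference genes *UBC21*, *TIP41* and *SAND* were called in no comparison (log2 differences from -0.28 to 0.22). All MeGRX360-OE arrays lay below all vector arrays for *UBC21* (329 to 370 against 402 to 446) and *SAND* (69.4 to 77.4 against 86.9 to 91.7). The limma adjusted p was 0.121 and 0.0939. Arrays of these groups did not overlap for 35.4% of all probe sets, in either direction. The 25S rRNA control was at 279 to 350 in vector, 430 to 616 in MeGRX232-OE and 853 to 1073 in MeGRX360-OE, without overlap, and its part in the results for the members was not tested. Correlations between arrays of a group were 0.967 to 0.991 over all probe sets tested.

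*SWEET15* was set beside the other SWEET genes, which encode sugar transporters of the same family. Of 16 further SWEET genes 15 had a named probe set, and in MeGRX232-OE 4 were called lower and 0 higher (12.8% of all probe sets were called lower), with a median log2 difference of -0.07 over the 15 genes beside 0.00 over all probe sets. The 4 were *SWEET2*, *SWEET13*, *SWEET11* and *SWEET1*. *SWEET11*, which with *SWEET12* exports sucrose towards the phloem of leaves, stood at 4153, 3330 and 3954 in vector, at 1410, 1581 and 2165 in MeGRX232-OE and at 1861, 2871 and 2706 in MeGRX360-OE. Its MeGRX360-OE arrays therefore lay below all vector arrays, but the difference of -0.64 did not pass (SE 0.21, limma adjusted p = 0.0731), while that of -1.17 in MeGRX232-OE did (SE 0.21, limma adjusted p = 0.00433).

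*SWEET13*, another sucrose transporter of this clade, stood at 363, 395 and 255 in vector, at 120, 60.5 and 185 in MeGRX232-OE and at 84.8, 173 and 140 in MeGRX360-OE. All overexpression arrays were below the vector arrays, with a fall of 1.59 in MeGRX232-OE (SE 0.41, limma adjusted p = 0.0227) and a difference of -1.38 in MeGRX360-OE that just missed the threshold (limma adjusted p = 0.0502). The call for *SWEET13* was lost without MeGRX232-OE replicate 1, vector replicate 1 or vector replicate 2. *SWEET2*, a transporter of the vacuolar membrane, stood at 50.3, 60.1 and 54.8 in vector, at 10.0, 12.2 and 6.76 in MeGRX232-OE and at 14.7, 38.1 and 27.9 in MeGRX360-OE. The 3 groups did not overlap, and the difference from vector was -2.55 in MeGRX232-OE (limma adjusted p = 0.000939) and -1.14 in MeGRX360-OE (limma adjusted p = 0.0502). *SWEET2* was dim in MeGRX232-OE, which leaves the size of its fall uncertain, and with a pseudocount of 16 the difference was -1.47 and still called. *SWEET1*, a glucose transporter, stood at 248, 221 and 144 in vector and at 90.4, 64.5 and 121 in MeGRX232-OE, a fall of 1.16 (SE 0.26, limma adjusted p = 0.0115). In MeGRX360-OE it stood at 139, 123 and 131, between the other groups, with a difference of -0.61 that did not pass (limma adjusted p = 0.157).

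By limma 0 of the 15 SWEET genes were called in MeGRX360-OE (4 at an unadjusted p under 0.05) and 0 between the overexpression groups (3 at an unadjusted p under 0.05). Of the 15 genes, 8 lay below the array median on all 9 arrays, at 7.40 to 17.7, and 0 of these 8 were called by limma in any comparison (1 at an unadjusted p under 0.05, between the overexpression groups). At such intensities little transcript is measured, so a change of those genes may not be visible. *SWEET16* and *SWEET17*, which encode fructose transporters of the vacuole, had differences of 0.49 and -0.57 in MeGRX232-OE and were not called.

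**Figure D4:**
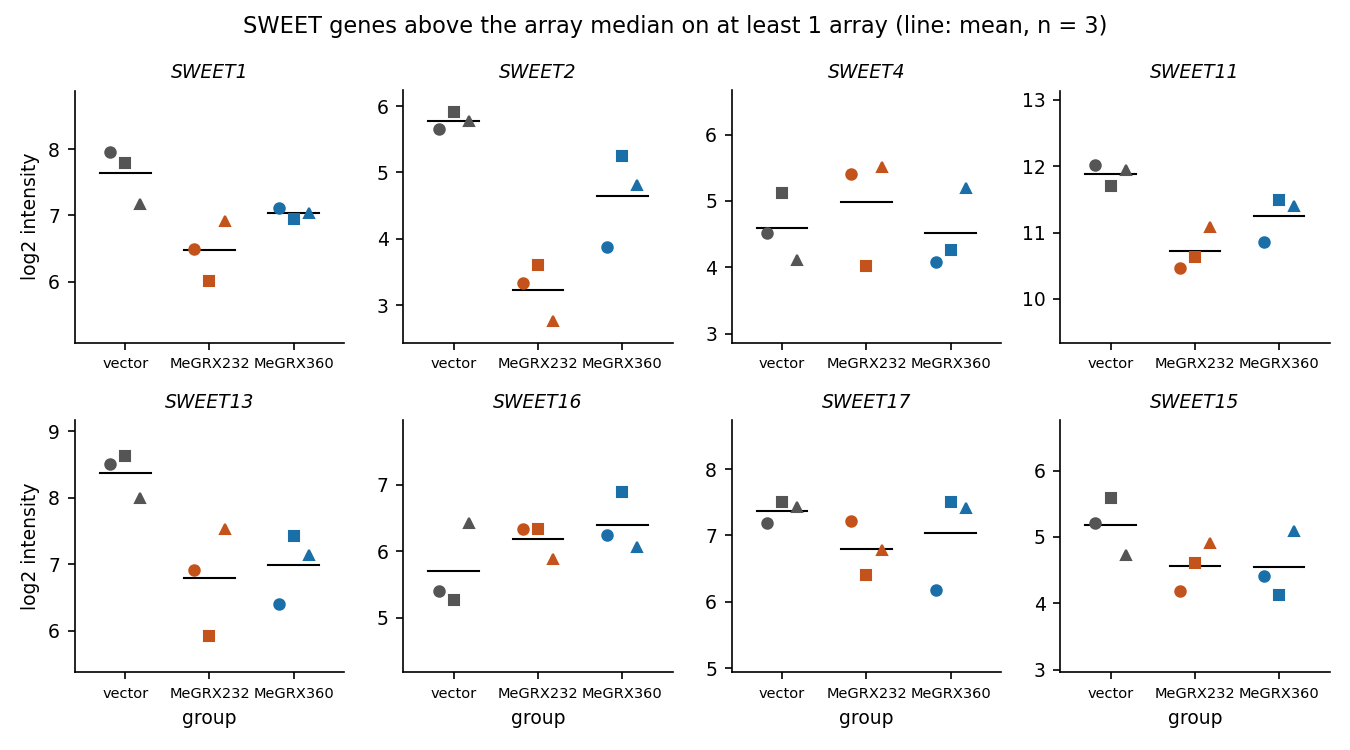
Log2 intensity (y axis, spanning the same number of log2 units in each panel) of *SWEET15* and of the 7 other SWEET genes that exceed the array median on at least 1 array, in vector, MeGRX232-OE and MeGRX360-OE leaves; symbols are arrays (circle, square and triangle for replicates 1 to 3) and lines are means. *SWEET1*, *SWEET2*, *SWEET11* and *SWEET13* lie lower on all MeGRX232-OE arrays than on all vector arrays, and *SWEET15* overlaps.

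Genes that regulate senescence or carry it out were compared next. Many listed genes had no probe set named in the tables used, and those named only through the study's gene ontology lists had been chosen for changing on these arrays, so they are no independent evidence of a direction. Over 7 lists with 106 genes, 38 had a named probe set. In MeGRX232-OE 12 were called higher and 7 lower (all probe sets, 9.22% higher and 12.8% lower). Among the 27 named from the platform annotation the counts were 5 higher and 5 lower, with a median log2 difference of 0.16 beside 0.00 over all probe sets, and among the 11 named through the study's lists they were 7 higher and 2 lower. The 27 include the 15 SWEET genes given above, of which 0 were called higher and 4 lower. In MeGRX360-OE 7 of the 38 were called higher and 1 lower (all probe sets, 6.74% higher and 9.72% lower). Among the 27 the counts were 3 higher and 1 lower, and among the 11 they were 4 higher and 0 lower. The 11 had been chosen in a comparison with the same vector arrays.

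Of 27 regulators of senescence 6 had a named probe set, and 5 of them rose in MeGRX232-OE, where 9.22% of all probe sets were called higher and *NAP* fell. *WRKY53*, a transcription factor that promotes senescence, stood at 37.4, 54.7 and 42.8 in vector, at 381, 223 and 438 in MeGRX360-OE and at 1152, 1006 and 1195 in MeGRX232-OE. The 3 groups did not overlap, and the rise was 4.65 in MeGRX232-OE and 2.91 in MeGRX360-OE (SE 0.25 in both, limma adjusted p = 1.84e-05 and 0.000297). *WRKY22*, which promotes senescence in the dark, stood at 12.3, 12.0 and 17.2 in vector, 199, 264 and 270 in MeGRX232-OE and 122, 175 and 176 in MeGRX360-OE, and rose by 4.15 and 3.51 (SE 0.21; limma adjusted p = 1.33e-05 and 6.52e-05). Its vector arrays were dim, so the size of the rise is uncertain, and with a pseudocount of 16 the differences were 3.12 and 2.53, both still called. *WRKY45*, named through the study's lists, rose by 2.84 in MeGRX232-OE (SE 0.48, limma adjusted p = 0.00326) and had a difference of 1.44 in MeGRX360-OE (limma adjusted p = 0.0789), where vector replicate 1 (51.5) lay above MeGRX360-OE replicate 2 (44.6). *MYB2*, also named through those lists, had a difference of 1.44 in MeGRX232-OE and was not called (limma adjusted p = 0.0833). The other 2 regulators, given because the count is small, were *WRKY6*, which rose in both groups (1.06 and 1.00, SE 0.20), and *EIN3*, a transcription factor of ethylene signalling, which rose in MeGRX232-OE (0.88, SE 0.20). *WRKY6* was dim in vector as well, and with a pseudocount of 16 its differences were 0.55 and 0.51, both still called. The call of *EIN3* was lost without vector replicate 2 (adjusted p = 0.0571).

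Of 18 senescence-associated genes 3 had a named probe set, and all 3 were called higher in MeGRX232-OE (9.22% of all probe sets). *SAG14*, named through the study's lists, rose from 468, 74.1 and 73.8 in vector to 2126, 3527 and 2275 in MeGRX232-OE and 2080, 2007 and 2172 in MeGRX360-OE (4.23 and 3.93, SE 0.62; limma adjusted p = 0.00163 and 0.00391). Vector replicate 1 was far above the other vector arrays for this gene. *SEN1*, a gene switched on by darkness and old age and named through the same lists, stood at 361, 318 and 1983 in vector and at 4511, 6935 and 2102 in MeGRX232-OE. Its rise of 2.73 (SE 0.68, limma adjusted p = 0.0202) set groups apart that nearly met, vector replicate 3 and MeGRX232-OE replicate 3 being close. The call of *SEN1* was lost without MeGRX232-OE replicate 1 or 2 or vector replicate 1 or 2. *GAMMA-VPE*, a vacuolar protease gene, stood at 2975, 1934 and 2022 in vector, 5323, 4802 and 12011 in MeGRX232-OE and 7516, 3051 and 4797 in MeGRX360-OE. It rose by 1.57 in MeGRX232-OE (SE 0.41, limma adjusted p = 0.0242) and had a difference of 1.08 in MeGRX360-OE (limma adjusted p = 0.117), with no overlap with vector in either. That call was lost without MeGRX232-OE replicate 3, vector replicate 2 or vector replicate 3.

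Of 10 genes of chlorophyll breakdown only *NOL*, a subunit of the chlorophyll b reductase, had a named probe set. It had a difference of 0.56 in MeGRX232-OE (SE 0.19, limma adjusted p = 0.0728) and was not called. Of 6 relatives and targets of *NAP* 0 had one, and so had 0 of 2 further sucrose transporters.

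Of 16 genes that move nitrogen and other nutrients out of old leaves 11 had a named probe set, and in MeGRX232-OE 4 rose and 3 fell (9.22% and 12.8% of all probe sets). The 4 that rose, all named through the study's lists, were *ASN1*, *GLN1;1*, *GDH2* and *GDH1*, which encode an asparagine synthetase, a cytosolic glutamine synthetase and 2 glutamate dehydrogenases. *GDH1* stood at 106, 92.2 and 145 in vector, 524, 1007 and 260 in MeGRX232-OE and 620, 513 and 572 in MeGRX360-OE, and rose by 2.20 and 2.34 (SE 0.41; limma adjusted p = 0.00544 and 0.00621). *GDH2* rose by 2.22 and 1.60 (SE 0.29) and *GLN1;1* by 2.26 and 2.08 (SE 0.53), in MeGRX232-OE and MeGRX360-OE in turn. *GDH2* was dim in vector, and with a pseudocount of 16 its differences were 1.50 and 1.00, both still called. The call of *GLN1;1* was lost without vector replicate 2 or 3 in both comparisons, and in MeGRX360-OE also without its replicate 1 or 3 and with a pseudocount of 16 (adjusted p = 0.0524).

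*ASN1* stood at 13.5, 22.7 and 84.4 in vector, 579, 425 and 136 in MeGRX232-OE and 84.1, 30.2 and 34.5 in MeGRX360-OE. It rose by 3.45 in MeGRX232-OE (SE 0.76, limma adjusted p = 0.0111), and the MeGRX360-OE arrays lay within the range of vector. The 3 that fell were *GLN1;2*, *ASN2* and *PPDK*, which encode another glutamine synthetase, another asparagine synthetase and pyruvate orthophosphate dikinase. *PPDK*, the gene of these 3 with a platform name, stood at 2018, 1737 and 1442 in vector, 874, 609 and 1033 in MeGRX232-OE and 790, 684 and 762 in MeGRX360-OE, and fell by 1.07 and 1.21 (SE 0.20; limma adjusted p = 0.00547 and 0.00481). *GLN1;2* fell by 1.28 in MeGRX232-OE (SE 0.14, limma adjusted p = 0.000381), where *GLN1;1* rose. *ASN2* fell by 1.80 (SE 0.52, limma adjusted p = 0.0377), and this call was lost in 5 of 9 fits with 1 array left out: MeGRX232-OE replicate 1 or 3, MeGRX360-OE replicate 3, vector replicate 2 or vector replicate 3. It was also lost with a pseudocount of 16 (adjusted p = 0.0526), and the difference was -1.19 without MeGRX232-OE replicate 3. The 4 *ATG8* genes, whose products build autophagosomes, had differences of 0.46 to 1.12 in MeGRX232-OE and were not called.

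*SAG101* acts beside EDS1-type proteins, and of 14 such partners and other immune regulators only *EDS1B* and *NDR1* had a named probe set. Neither was called. *EDS1B* stood at 57.9, 37.4 and 12.2 in vector and 31.8, 58.0 and 17.4 in MeGRX232-OE, with a difference of 0.10 (SE 0.61, limma adjusted p = 0.942). *NDR1*, whose probe set can also take up transcripts of a similar gene, stood at 124, 105 and 49.9 in vector and 196, 147 and 232 in MeGRX232-OE, without overlap, and its difference was 1.12 (SE 0.37, limma adjusted p = 0.0646).

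**Figure D5:**
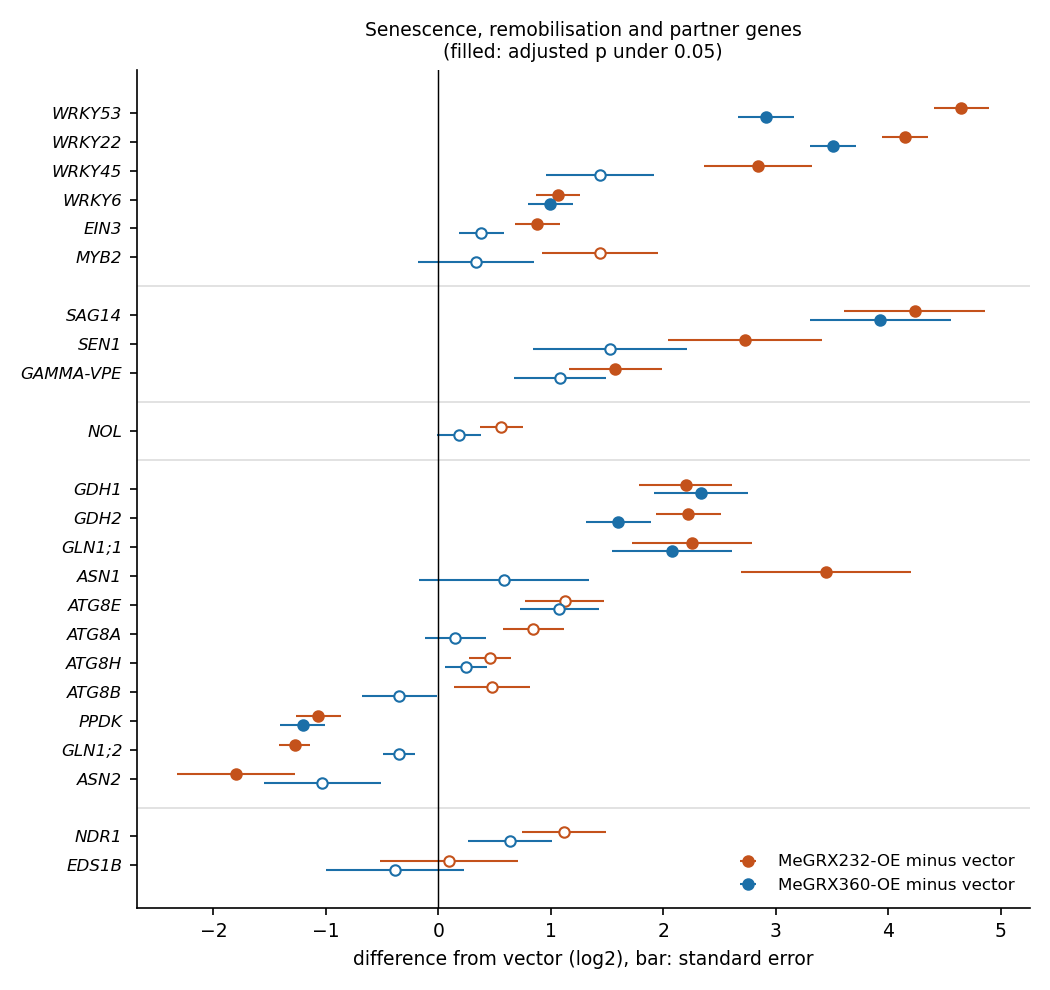
Log2 difference from vector (x axis) with its SE for the named genes other than the members and SWEET genes (y axis), in MeGRX232-OE and MeGRX360-OE; filled points have an adjusted p under 0.05, and lines part the regulators, senescence-associated genes, chlorophyll breakdown, remobilisation and SAG101 partners. *WRKY53*, *WRKY22* and *SAG14* lie between 2.91 and 4.65, and *PPDK*, *GLN1;2* and *ASN2* lie below 0 in both groups.

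The study's gene ontology lists set the members among other probe sets, and since those lists were drawn from changes in MeGRX232-OE, the counts only describe them. Leaf senescence holds 3 probe sets, *NAP* and 2 that have no gene name in the tables used. *NAP* was the one that fell in MeGRX232-OE, and the others rose. These were 252060_at, listed only as F22O6_190, by 1.59 and 259875_s_at, listed only as Q3ECC6_ARATH, by 1.89. Senescence holds 1, AT1G66330, which was called lower in both groups (-1.34 in MeGRX232-OE and -0.71 in MeGRX360-OE). Aging holds 9, among them *SAG101* and *SEN1*, of which 8 rose and 1 fell in MeGRX232-OE, while in MeGRX360-OE 3 of the 9 rose and 0 fell. *TET8*, which encodes a tetraspanin membrane protein, rose in both groups (2.18 and 1.86), from 643, 758 and 977 in vector to 3101, 3462 and 4122 in MeGRX232-OE. *TET8*, AT1G66330 and the probe sets with no gene name were chosen after their values were seen.

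For each member the 5 single-gene probe sets with the most similar pattern over the 9 arrays were found, by Pearson's r of log2 values among 6366 (*NAP* and *SAG101*) or 6367 (*SWEET15*) named probe sets brighter than the median one. The points are 3 groups of 3 arrays and share the differences between them. For *NAP* they were AT5G45410 and AT1G51980 (both 0.98), AT3G50860, AT3G09890 and AT5G62440 (all 0.97), and these differed from vector by -0.59 to -0.90 in MeGRX232-OE, less than *NAP* itself. For *SAG101* they were AT5G22540 (0.99), AT1G36980, AT4G33100, AT2G19130 and AT5G08240 (all 0.98).

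These 5 shared the high value of MeGRX360-OE replicate 1, which is part of the pattern by which they were picked and so no separate result. AT5G22540 stood at 143, 35.6 and 38.3 in MeGRX360-OE, beside 103, 120 and 132 in MeGRX232-OE and 28.9, 22.5 and 23.2 in vector, and AT5G08240 stood at 238, 44.9 and 90.3 in MeGRX360-OE beside 229 to 249 in MeGRX232-OE. For *SWEET15* they were AT5G11900 (0.95), *SDH1-1* (0.94), which encodes a subunit of succinate dehydrogenase, AT3G25120 (0.93), AT2G24390 and AT2G04520 (both 0.89). None of these was called against vector, as *SWEET15* was not. An r over 0.9 was found for 149 probe sets with *NAP*, 139 with *SAG101* and 3 with *SWEET15*.

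Of the 12 protein-coding genes that flank the members in the RefSeq order, 2 on each side, 5 had a named probe set, all next to *NAP* or *SAG101*, and 0 of these were called by limma in any of the 3 comparisons. Their log2 differences were -0.42 to 0.36 in MeGRX232-OE, with 1 at an unadjusted p under 0.05, and -1.32 to 0.60 in MeGRX360-OE, with 2.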

How the data were processed

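Affymetrix ATH1 arrays measured 22810 probe sets in 9 leaf samples, 3 per group. The intensity values deposited by the authors are linear (3.24 to 15640; array medians 28.1 to 30.2); RMA is named in the submitters' processing notes (version and settings: not given in the sources used here). Precision is limited by the number of arrays.

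Log2 was taken, the 64 control probe sets were left out, and limma 3.58.1 in R 4.3.3 was fitted with a mean per group over all 9 arrays (6 residual and 2.76 prior degrees of freedom), with Benjamini-Hochberg adjustment over 22746 probe sets. The fit was tested on simulated data. The study's thresholds, a change of over 2-fold and p under 0.05, were also applied, to the unadjusted limma p. Tables and plots were made in Python 3.11.15 with pandas 2.3.3 and matplotlib 3.10.9.

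The platform annotation gave 1 gene for 13513 probe sets and several for 503, which stayed unnamed; 356 more were named through the study's gene ontology lists, and symbols were updated through RefSeq (TAIR10.1). The *NAP* probe set is one of the 356. Members and gene lists were chosen with earlier results of these data known. Named genes were the members, up to 4 genes per list with the largest difference in any comparison, those called against most of their list, and the 5 probe sets most like each member.

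Alternatives were a replicate block, quantile normalization, median centring, leaving out the dimmest 40% of probe sets, an intensity trend, array weights, a pseudocount of 16, fits with the 6 arrays compared only, and each array left out.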

Additional observations from a re-analysis of the deposited data

Results flagged for a closer look

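The change of *WRKY53* against vector differed between the overexpression groups by the direct test. It was higher in MeGRX232-OE than in MeGRX360-OE by 1.74 on the log2 scale (SE 0.25, limma adjusted p = 0.0482), with all 3 MeGRX232-OE arrays above all 3 MeGRX360-OE arrays, as for 16.3% of all probe sets in either direction. The difference was 1.45 to 1.93 over the 17 alternative fits, but 6 of these called it (adjusted p = 0.0230 to 0.156), and it was lost in 7 of the 9 fits with 1 array left out, all but those without MeGRX232-OE replicate 2 and without MeGRX360-OE replicate 1. No difference of *NAP*, *SAG101* or *SWEET15* between the overexpression groups passed that test.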

How the results depend on the processing

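Of 162 alternative values for the members, 153 kept their direction and their side of the threshold. With 1 array left out, *NAP* differed from vector by -1.93 to -1.40 in MeGRX232-OE and by -1.59 to -1.16 in MeGRX360-OE, and by -0.58 to 0.00034 between the overexpression groups, turning sign without MeGRX360-OE replicate 3. *SAG101* ranged over 1.39 to 1.61, 0.50 to 1.14 and 0.33 to 0.97 in the same order, and *SWEET15* over -0.84 to -0.41, -0.91 to -0.43 and -0.18 to 0.30. The last turned sign without MeGRX232-OE replicate 3 (-0.15), MeGRX360-OE replicate 1 (-0.04) or MeGRX360-OE replicate 2 (-0.18). With array weights *SWEET15* was called lower in MeGRX232-OE (-0.92, adjusted p = 0.0473; over its other alternatives and the fits with 1 array left out it did not pass), and its difference between the overexpression groups turned to -0.37. The cause was not tested.

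Over all probe sets 5009, 3746 and 33 were called, in MeGRX232-OE, in MeGRX360-OE and between the overexpression groups. The study's thresholds gave 2683, 1963 and 490. Array weights gave 5701 in MeGRX360-OE and 530 between the overexpression groups, where median centring gave 21, the pseudocount 14 and the fit of 6 arrays 5. With 1 array left out the counts were 3471 to 5317, 2219 to 4063 and 4 to 177; in MeGRX360-OE they were 2389 without its replicate 3, 2455 without vector replicate 1 and 2219 without vector replicate 2, and between the overexpression groups every array left out moved the count by over 1.5 times.

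Of the listed genes 19, 8 and 1 were called. With array weights 15 were called in MeGRX360-OE, and between the overexpression groups array weights and the study's thresholds each gave 4, quantile normalization 2, and median centring, the pseudocount and the fit of 6 arrays 0. With 1 array left out the counts were 13 to 20, 7 to 12 and 0 to 3, and 13 of the 19 and 7 of the 8 genes kept their call in all 9 such fits. The fit of 6 arrays ended the calls of *SEN1* (adjusted p = 0.0514) and *ASN2* (0.0657) in MeGRX232-OE, and the replicate block that of *GLN1;1* in MeGRX360-OE (0.0509).

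Arrays with the same replicate number showed no common direction of deviation (r of -0.21 to 0.27 over 9 pairs). These values cannot exclude that the numbers pair the samples, because groups are small and an effect shared by some probe sets need not show in r. With the replicate number as a block the calls were 4724, 3302 and 25 probe sets and 21, 8 and 0 listed genes, and *NAP* (adjusted p = 0.00815 and 0.0215), *SAG101* (0.0121 and 0.0811) and *SWEET15* (0.257 and 0.263) kept their side of the threshold against vector. *SWEET15* is dim, and its signal near the array median limits what its values can show.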
